A study of Mus musculus with 6 samples.

Results

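The clustered protocadherin genes were followed in ATAC-seq peak lists of neural stem cell (NSC) cultures from the mouse subependymal zone (SEZ), the neurogenic niche of the adult forebrain. Members were all protein-coding genes of GENCODE M21 on chromosome 18 (GRCm38) whose symbol begins with *Pcdha*, *Pcdhac*, *Pcdhb*, *Pcdhga*, *Pcdhgb* or *Pcdhgc* followed by a number. This gave 57 of 21951 protein-coding genes, with 14 in the alpha, 22 in the beta and 21 in the gamma cluster. Of these, 5 are C-type genes (*Pcdhac1*, *Pcdhac2*, *Pcdhgc3*, *Pcdhgc4* and *Pcdhgc5*) and 52 are variable genes. M21 gives the symbol *Pcdha11* to 2 genes, and the one that RefSeq calls *Pcdha10* (ENSMUSG00000007440.10) is named so here.

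Every culture carried the CRISPR-Cas9 deletion of *Srr2*, an enhancer of *Sox2*, on both alleles (*Srr2* del/del), and came from animals of 10 weeks. Proliferating cultures (PROLIF) had 2 days in vitro with mitogens, and early differentiating cultures (DIFF) had a further 1 day without mitogens in 2% fetal bovine serum. Each state had 3 libraries, replicates 1, 2 and 4. The study bred 2 deletion strains on a C57BL/6J background, the strain behind each library is not given in the sources used here, and no library of unaltered mice was used here, so no effect of the deletion can be read from these values. For ATAC-seq the study describes 3 cultures of each genotype as independent biological replicates. Nothing in the labels says whether replicates were separate animals, so the p-values measure only the spread between these libraries.

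Clustered protocadherins are cadherin-like adhesion proteins that bind their own kind across cells and give single neurons a surface identity used in self-avoidance and wiring. In the alpha and gamma clusters, each variable exon has its own promoter and is spliced to constant exons shared by the cluster, while the beta genes stand without constant exons. Variable promoters are chosen apparently at random in each neuron, whereas C-type promoters are used more uniformly. CTCF and cohesin loop chosen promoters to enhancers that lie in and beyond the clusters, and most unchosen promoters are methylated and closed.

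An ATAC-seq peak marks DNA that the transposase could reach more often than the surroundings. A promoter peak was a peak overlapping the 1 kb either side of any annotated transcript start, and its strength was given as the percentile of its −log10 p within its own list (100 for the strongest peak), because lists called separately are not on one scale. The lists held 60006 to 88039 peaks, and between 63.3% and 66.3% of protein-coding genes had a promoter peak in a library. The median fold enrichment among the weakest 10% of a list was lowest in DIFF replicate 4, at 2.42, against 2.81 to 3.12 in the others, so that list held weaker peaks. All 8 NSC markers (*Sox2*, *Nes*, *Sox9*, *Pax6*, *Egfr*, *Vim*, *Fabp7* and *Msi1*) had a promoter peak in every library. So did 61.1% of all protein-coding genes, and these peaks alone do not identify the tissue. Of the oligodendrocyte markers, *Mbp* had a peak in 5 libraries at percentiles of 33.7 to 51.1, *Mog* had one in 1 PROLIF library at 12.9, and *Sox10* and *Mag* had none in any. Among the markers of other types, 4 of 6 neuronal, 3 of 4 astrocytic, 1 of 5 microglial and 1 of 5 endothelial genes had a peak in every library. The microglial gene was *P2ry12* (56.8 to 78.1) and the endothelial gene *Kdr* (54.3 to 75.8). *Rbfox3* and *Tmem119* had a peak in 5 libraries, and *Aqp4* and *Pecam1* in 3, those of *Pecam1* all PROLIF (44.1 to 55.1). *Dcx*, *Aif1*, *Cx3cr1*, *Csf1r*, *Cdh5*, *Cldn5* and *Tie1* had none in any library. In bulk cultures, a promoter open in fewer cells and one less open in each cell cannot be told apart.

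Most clustered protocadherin promoters were found in some libraries and missed in others. Of the 57 members, 13 had a promoter peak in all 6 libraries (22.8%), 31 in 1 to 5 (54.4%) and 13 in none. Across all protein-coding genes these shares were 61.1% in all libraries, 8.12% in 1 to 5 and 30.8% in none. Member peaks were weaker than usual for a promoter: the median of the members' median percentiles was 36.7, over the 44 with a peak, and 84.9 over the 15185 genes with one. The members were also set beside genes with weak peaks, a comparison chosen after seeing the data. Of genes with a peak and a median percentile under 60, 57.7% had it in 1 to 5 libraries, and of the 38 such members 31 did (81.6%). Strength was not matched further below this cut, and its part in the difference was not tested. With q of 0.001 or less, 14 members had no peak, 32 had one in 1 to 5 libraries and 11 in all 6, and with lists of equal length these numbers were 15, 33 and 9. With lists cut to the strongest 20000 peaks, 50 members had no peak, 4 had one in 1 to 5 libraries and 3 in all 6, against 45.4%, 13.2% and 41.4% of all protein-coding genes under the same cut.

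**Figure D1:**
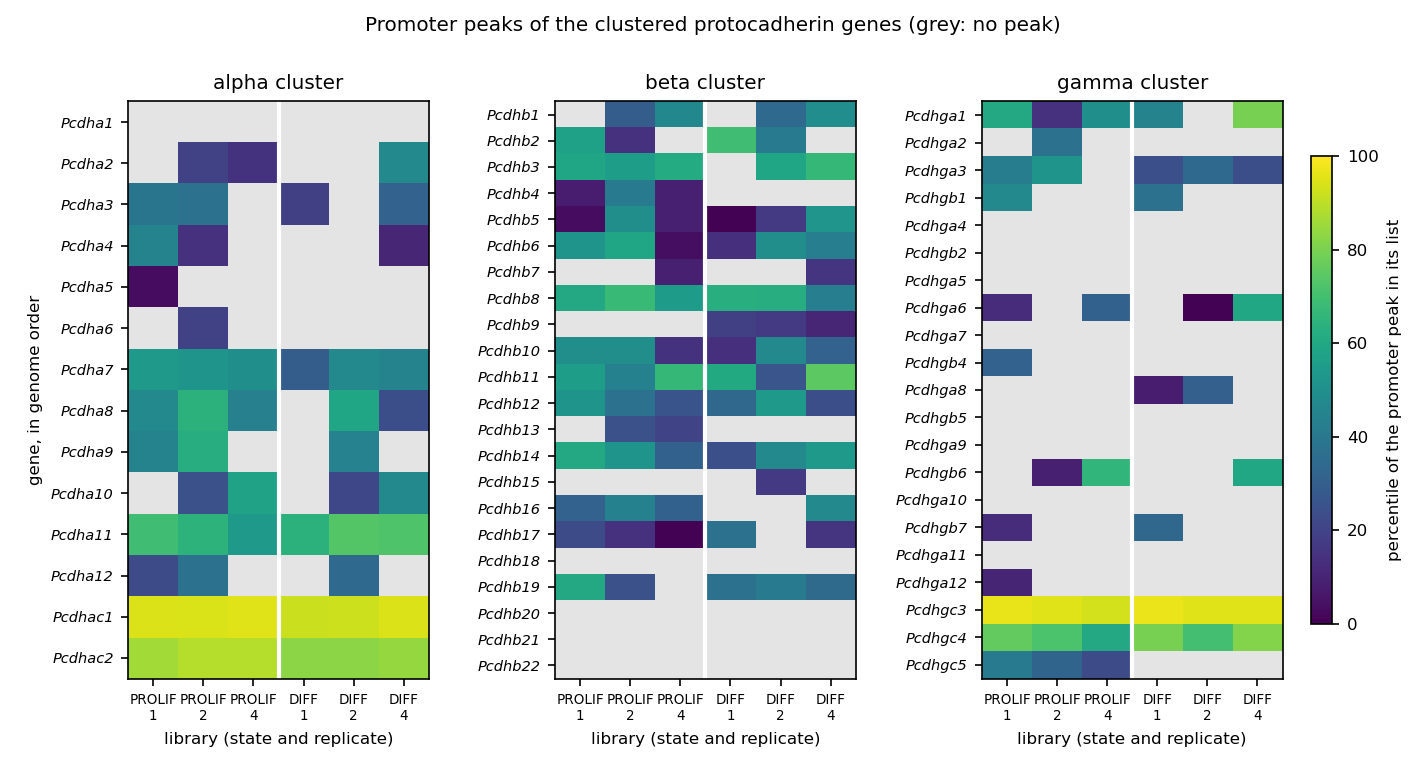
Percentile of the promoter peak of each member (rows, in genome order) in each of the 6 libraries (columns, PROLIF left and DIFF right of the white line), with grey for no peak. *Pcdhac1*, *Pcdhac2* and *Pcdhgc3* lie between 82.6 and 97.1 in every library, while most variable genes alternate between grey and lower percentiles.

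The C-type genes stood apart from the variable genes. Of the 5, 4 had a promoter peak in all 6 libraries, against 9 of the 52 variable genes (17.3%), of which 13 had none. *Pcdhac1* (start at 37090013), the last but one alpha gene, had percentiles of 94.5, 94.2 and 95.0 in PROLIF replicates 1, 2 and 4 and of 92.2, 92.3 and 94.8 in DIFF replicates 1, 2 and 4. These ranges overlapped, and its fold enrichment over local background was 13.2 to 17.1. *Pcdhac2* (start at 37143503), the last alpha gene, had 86.2, 89.0 and 88.7 in PROLIF and 82.8, 82.6 and 84.4 in DIFF. Every PROLIF value of *Pcdhac2* was above every DIFF value, and its peaks were broad, from 1184 to 1442 bp.

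In the gamma cluster, *Pcdhgc3* (start at 37806364) had the highest median percentile of all members (95.2), with values of 96.7, 95.2 and 93.0 in PROLIF and 97.1, 95.1 and 95.2 in DIFF. *Pcdhgc4* (start at 37815079), whose protein is needed for the survival of many neurons, had 76.2, 71.6 and 60.3 in PROLIF and 79.3, 70.1 and 81.5 in DIFF. For both genes the 2 states overlapped. *Pcdhgc5* (start at 37819513), the last gene of the cluster, had a peak at percentiles of 40.7, 32.3 and 23.0 in PROLIF and none in any DIFF library. Its fold enrichment was low, from 2.87 to 3.13.

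Among the variable alpha genes, 2 of 12 had a promoter peak in every library. *Pcdha7* had percentiles of 53.7, 51.8 and 49.9 in PROLIF and 29.3, 46.9 and 44.8 in DIFF, with every PROLIF value above every DIFF value. Its fold enrichment overlapped between the states, at 6.55, 6.09 and 5.72 in PROLIF and 3.88, 5.81 and 4.14 in DIFF. *Pcdha11* had 69.3, 64.5 and 53.8 in PROLIF and 64.1, 73.3 and 72.6 in DIFF, so the states overlapped. *Pcdha8* had a peak in all libraries but DIFF replicate 1, between 24.2 and 64.1. *Pcdha1*, the first gene of the cluster, had no peak in any library, and *Pcdha5* and *Pcdha6* had one in a single PROLIF library each.

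Among the beta genes, which encode proteins without the shared cytoplasmic domain, 7 of 22 had a peak in every library and 11 in 1 to 5. *Pcdhb8* had the highest lowest value, with percentiles of 60.5, 67.3 and 55.1 in PROLIF and 62.5, 62.3 and 42.6 in DIFF. *Pcdhb11* (26.4 to 74.7), *Pcdhb14* (24.3 to 60.5), *Pcdhb12* (24.2 to 53.7) and *Pcdhb10* (13.3 to 49.5) followed, and in all 5 the states overlapped. *Pcdhb5* and *Pcdhb6* were also found in every library, with lowest percentiles of 0.504 and 3.69. *Pcdhb1*, the first beta gene, had a peak in 4 libraries. At the far end of the cluster, *Pcdhb18*, *Pcdhb20*, *Pcdhb21* and *Pcdhb22* had no peak in any library, and *Pcdhb19*, which lies between them, had one in 5.

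The gamma cluster had the most promoters without a peak. Of its 18 variable genes, none had a peak in every library, and 8 (*Pcdhga4*, *Pcdhgb2*, *Pcdhga5*, *Pcdhga7*, *Pcdhgb5*, *Pcdhga9*, *Pcdhga10* and *Pcdhga11*) had none in any. *Pcdhga1*, the first gene of the cluster, had percentiles of 60.5, 14.3 and 49.9 in PROLIF, 44.6 and 79.6 in DIFF replicates 1 and 4, and no peak in DIFF replicate 2. *Pcdhga3* had a peak in all but PROLIF replicate 4, between 24.2 and 51.8. *Pcdhgb8* is annotated as a polymorphic pseudogene and was not a member, but a region at its exon had a peak in all 6 libraries, from percentile 26.0 to 85.6.

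The comparison of the states asked whether these promoters opened or closed in early differentiation. The number of members with a promoter peak was 33, 34 and 27 in PROLIF and 23, 26 and 29 in DIFF, or 31.3 ± 3.79 and 26 ± 3.00 (SD, n = 3). The ranges overlapped, and the difference of -5.33 members did not pass the exact permutation test (two-sided p = 0.2, adjusted p = 0.571 over 8 results). With 3 libraries against 3 the smallest possible p is 0.1. By cluster, 10, 12 and 7 alpha, 13, 15 and 14 beta and 10, 7 and 6 gamma genes had a peak in PROLIF. In DIFF these numbers were 5, 8 and 9 alpha, 11, 13 and 14 beta and 7, 5 and 6 gamma genes. No cluster passed the exact permutation test (two-sided p of 0.4 for alpha and 0.5 for beta and gamma, adjusted p = 0.571 for each). The median percentile over all members, with no peak counted as 0, was 12.9, 19.9 and 0 in PROLIF and 0, 0 and 10.7 in DIFF (exact permutation p = 0.4, adjusted p = 0.571). A peak was found in more PROLIF than DIFF libraries for 18 members, 7 of them alpha, in more DIFF libraries for 5, none of them alpha, and in equal numbers for 21. Of all protein-coding genes, 2.97% had a peak in more PROLIF and 3.85% in more DIFF libraries. Only genes with a peak in 1 to 5 libraries can differ in this way. Of the 1783 such genes, 651 had it in more PROLIF and 845 in more DIFF libraries. Of the 31 such members, 18 and 5 did.

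Only 3 members were found in every library of one state and in none of the other. The PROLIF-only members were *Pcdhb4*, at percentiles of 7.71, 40.9 and 8.80, and *Pcdhgc5*, described above. They make up 2 of 57, against 0.159% of all protein-coding genes. Only genes with a peak in 1 to 5 libraries can be state-only. Of the 1783 such genes, 35 were PROLIF-only and 63 DIFF-only, and of the 31 such members 2 and 1 were. The DIFF-only member was *Pcdhb9*, at 18.9, 16.9 and 10.7, against 0.287% of all genes. All 3 were weak peaks, with a highest fold enrichment of 5.08, and with q values of 0.001 or less 1 PROLIF-only and no DIFF-only member remained as a count. Without DIFF replicate 4 there were 2 DIFF-only members, the added one being *Pcdhga8*, named after its values were seen. Counted by same-numbered libraries (a peak in 1 state alone in at least 2 of the 3 numbers and never the reverse), 4 members were PROLIF-only, against 0.756% of all genes, and 2 DIFF-only, against 1.06%. By this count, 166 and 232 of the 1783 genes with a peak in 1 to 5 libraries were PROLIF-only and DIFF-only. Of the 13 members with a peak in all libraries, *Pcdhac2* and *Pcdha7* had every PROLIF percentile above every DIFF percentile, against 4.51% of such promoters in the genome. None had the reverse, against 26.1% of such promoters.

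**Figure D2:**
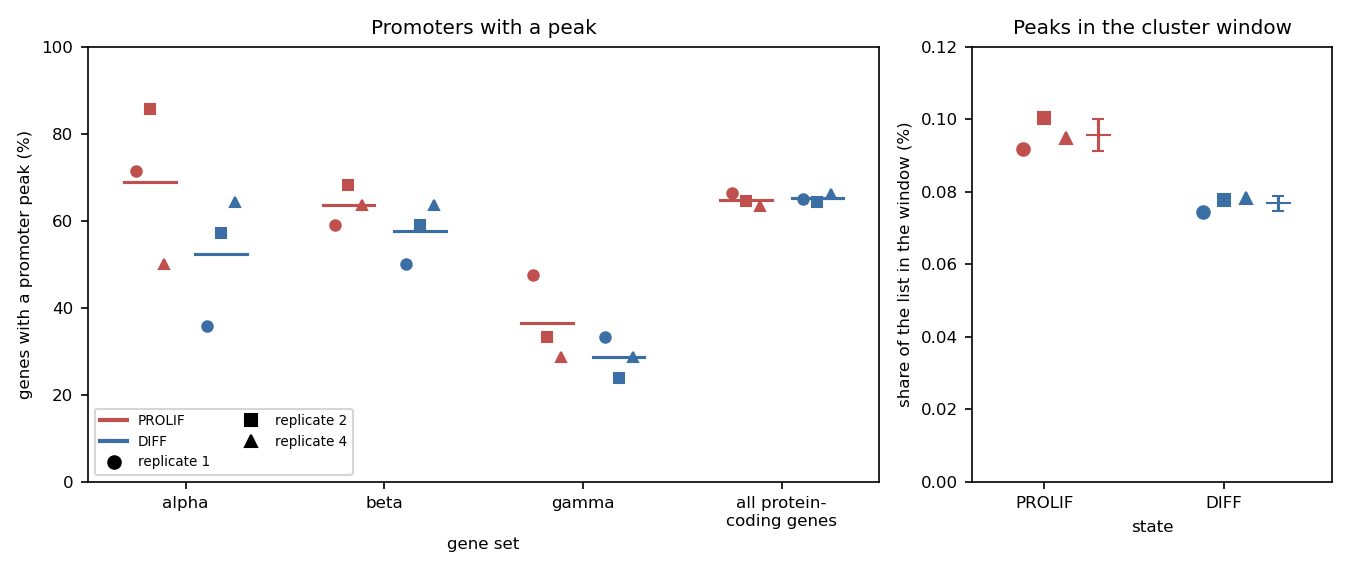
Left, percent of alpha, beta, gamma and all protein-coding genes with a promoter peak in each library, with symbols for replicates and a line for the mean of a state. Right, peaks in the cluster window as a percent of the list, with mean and SD beside the points (n = 3): PROLIF libraries lie at 0.0919 to 0.101% and DIFF libraries at 0.0743 to 0.0784%, while the promoter shares of the 2 states overlap.

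The whole locus was then read as a window of 1111.69 kb, from the start of *Pcdha1* (36930184) to 200 kb past the end of the gamma cluster (38041873). It held 76, 67 and 57 peaks in PROLIF and 53, 55 and 69 in DIFF (exact permutation p = 0.4, adjusted p = 0.571). Covered length was 31.7 ± 4.67 kb in PROLIF and 30.3 ± 3.97 kb in DIFF (SD, n = 3; exact permutation p = 0.8, adjusted p = 0.8). As a share of each list, to allow for list length, the window took 0.0919, 0.101 and 0.0950% in PROLIF and 0.0743, 0.0778 and 0.0784% in DIFF. Every PROLIF library was above every DIFF library, and the difference of -0.0190 percentage points had the smallest p the design allows (exact permutation p = 0.1), with an adjusted p of 0.571. Among 1870 windows of this length tiled over the genome, with at least 10 peaks in each list, 11.8% had every PROLIF share above every DIFF share and 14.0% the reverse. The mean DIFF share was 0.802 of the mean PROLIF share in the cluster window, and 80% of genome windows lay between 0.836 and 1.18. Among the strongest 20000 peaks of each list the difference shrank to -0.00167 percentage points (exact permutation p = 1).

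Some alpha genes had their summits at a fixed place well inside the gene. Over all libraries with a peak, the summit lay within 100 bp of the gene start for 51 of 80 beta peaks and 17 of 26 peaks of variable gamma genes. In the variable alpha genes this was so for 19 of 39 peaks. Another 14 were picked for a summit within 100 bp of a match to the CTCF consensus, the binding motif of the looping factor. Their summits lay 527 to 619 bp downstream of the start, inside the variable exon. Most of these came from 2 genes. All 6 peaks of *Pcdha7* (545 to 587 bp) and all 5 of *Pcdha8* (527 to 590 bp) lay there, as did 1 peak each of *Pcdha4*, *Pcdha6* and *Pcdha12*. Single beta peaks also lay far downstream, at 656 bp in *Pcdhb4* and up to 719 bp in *Pcdhb10*. Single alpha peaks over 100 bp from any match lay at 435 bp in *Pcdha5*, 489 bp in *Pcdha3* and 702 bp in *Pcdha4*. Nearness to a match was the rule that picked the 14 alpha summits and is not a result. C-type summits lay close to the start in *Pcdhac1* and *Pcdhgc3* and downstream in *Pcdhac2* (359 to 431 bp) and *Pcdhgc4* (240 to 255 bp).

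**Figure D3:**
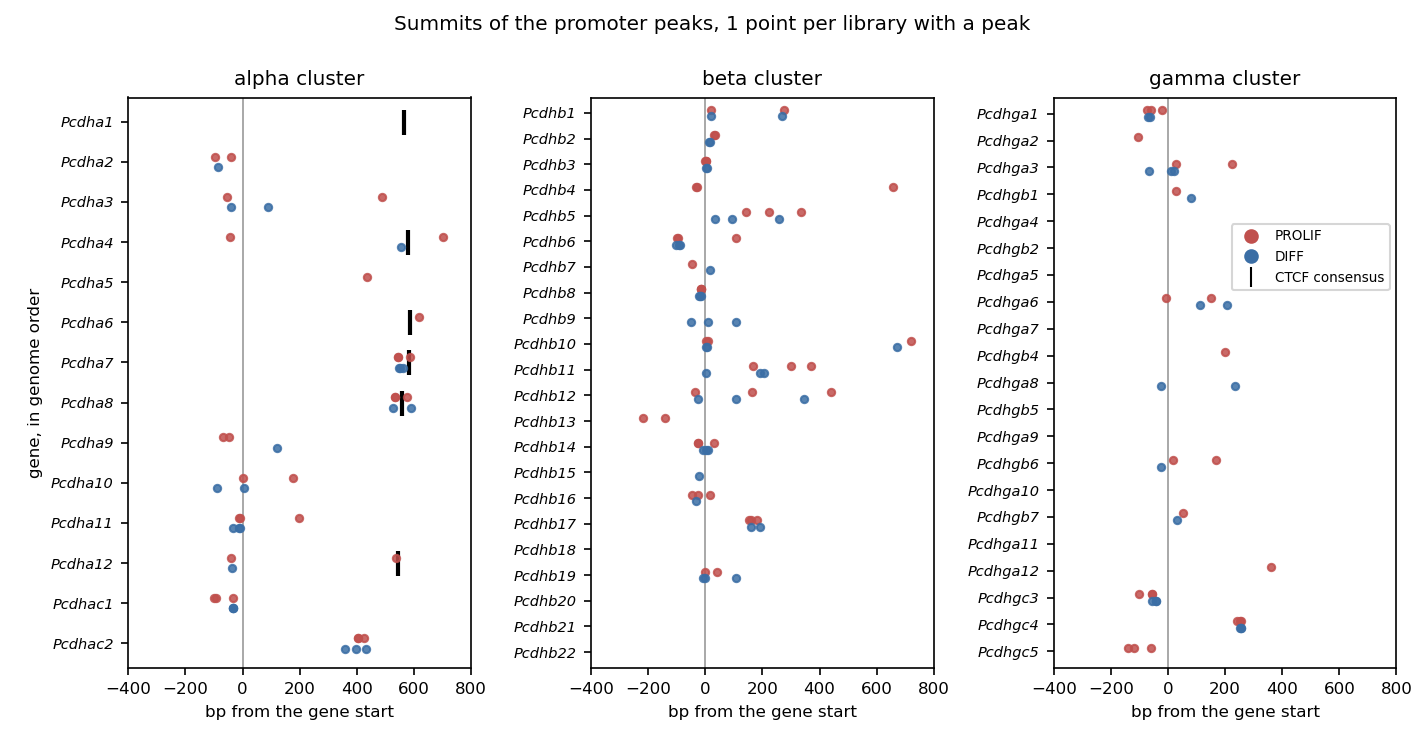
Position of the promoter peak's summit in bp from the gene start (0, downstream positive), 1 point for each library with a peak, PROLIF above and DIFF below the gene's line, with black bars at matches to the CTCF consensus. Summits of *Pcdha7* and *Pcdha8* lie at 527 to 590 bp, beside their CTCF match, whereas most beta and gamma summits lie near 0.

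The CTCF consensus (12 letters, both strands) was found within 1 kb of the start of 6 of 14 alpha genes (*Pcdha1*, *Pcdha4*, *Pcdha6*, *Pcdha7*, *Pcdha8* and *Pcdha12*), always 543 to 587 bp downstream. It was found near none of the 22 beta or 21 gamma genes, against 1.72% of 21938 protein-coding genes with sequence. Within 100 bp of the summit it lay at 14 of 51 alpha promoter peaks (27.5%), at none of 80 beta and 41 gamma peaks, and at 5.23% of all 438205 peaks of the 6 lists. These are the same 14 peaks picked above, 6 of them from *Pcdha7* and 5 from *Pcdha8*. Peaks of one gene in several libraries repeat one site, so the alpha share is a description. A match is a run of letters and not a binding site, and *Pcdha1*, which has a match, had no peak. Only this 12-letter pattern was searched, so the lack of a match does not show that a site is absent. The letters CGCT, the core of the sequence element known from most clustered protocadherin promoters, were found near all 57 members, but also near 92.7% of all genes.

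Base composition was set beside the peaks. The ratio of observed to expected CpG within 500 bp of the start had a median of 0.682 in alpha, 0.378 in beta and 0.594 in gamma genes, and of 0.552 in all genes. Across the 52 variable genes, the number of libraries with a peak had a Spearman's rho of -0.131 and a Pearson's r of -0.122 with this ratio. With GC content the values were -0.310 and -0.223. These genes share a locus and their libraries, so the values are a description. Members are paralogs, and reads from near-identical stretches cannot be placed with certainty. The share of 36-base words around the start that recur elsewhere in the window was highest in *Pcdha7* (24.4%), with 20.8% in *Pcdha6* and 19.3% in *Pcdha8*. The median was 10.1% in alpha and 0 in beta genes, but single beta genes had up to 16.8% (*Pcdhb12*). Of the beta genes found in every library, *Pcdhb5*, *Pcdhb6*, *Pcdhb8*, *Pcdhb10*, *Pcdhb11* and *Pcdhb12* had 5.95 to 16.8% and *Pcdhb14* had 0. All 5 C-type genes had 0. Across variable genes the share had a rho of 0.319 and an r of 0.314 with the number of libraries. Its part in the missing or found peaks was not tested, and a mapping quality filter is not given in the sources used here.

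Merging peaks that overlap by at least 1 bp gave 99 regions in the window. Of these, 34 were found in all 6 libraries (34.3%, against 33.4% of regions in the genome) and 26 in a single library (against 29.7%). The 50 regions at member promoters included 13 found in every library, and the 49 elsewhere included 21 (42.9%). Of those 21, 6 lay within 1 kb of the start of a protein-coding gene outside the family. Median percentiles of the regions found in all libraries were 58.2 at member promoters, 85.4 elsewhere in the window and 70.7 in the genome.

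Within the alpha cluster, the 3 regions elsewhere that were found in every library all had higher percentiles in PROLIF. The region at 37172230-37172869, 15.4 kb before the end of the cluster, in introns of the alpha genes and an exon of the antisense transcript *Gm38097*, had 94.0, 91.9 and 89.8 in PROLIF and 80.1, 84.6 and 88.8 in DIFF. The region at 37177958-37179307, in an exon of the noncoding transcript *Gm10544*, had 90.4, 88.2 and 88.4 in PROLIF and 77.4, 82.7 and 81.0 in DIFF. The region at 37149110-37149720, in introns of the alpha genes, had 70.4, 80.9 and 72.2 in PROLIF and 51.3, 56.9 and 68.1 in DIFF. With the promoters of *Pcdhac2* and *Pcdha7*, 5 of the 7 alpha regions found in all libraries had every PROLIF value above every DIFF value and none had the reverse, against 11.7% and 21.1% of such regions in the genome.

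The only region between the alpha and beta clusters had its higher values in DIFF. It lies at 37217185-37218488, 29.5 kb past the end of alpha and 46.5 kb before *Pcdhb1*, contains a CTCF match and had percentiles of 90.6, 91.8 and 93.6 in PROLIF and 96.8, 96.0 and 97.6 in DIFF. Its fold enrichment was 12.8, 12.4 and 12.1 in PROLIF and 14.3, 15.3 and 14.7 in DIFF. A known alpha enhancer lies between these clusters, and the region was not matched to it by coordinates. In the gamma cluster, the region at 37823876-37825153, at a constant exon, had 90.3, 90.1 and 90.3 in PROLIF and 96.3, 95.1 and 97.0 in DIFF. A region across the 3′ end of gamma (37841400-37843239) starts in the shared UTR and runs past the annotated end at 37841873. It had 89.4, 85.8 and 84.5 in PROLIF and 75.5, 72.2 and 79.0 in DIFF.

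Over the whole window, 7 of the 34 regions found in all libraries had every PROLIF value above every DIFF value, against 11.7% in the genome, and 4 had the reverse, against 21.1%. The PROLIF-only regions, 2 of 99 against 1.78%, were the *Pcdhgc5* promoter and a region at 38008949-38009346, 167 kb past gamma, with percentiles of 62.3, 6.59 and 56.7. The DIFF-only region, 1 of 99 against 3.47%, was the *Pcdhb9* promoter. Without DIFF replicate 4 there were 5 PROLIF-only regions, and without DIFF replicate 1 there were 3 DIFF-only regions. Leaving out PROLIF replicate 4 or DIFF replicate 2 gave 2 DIFF-only regions. Counted by same-numbered libraries, 8 of the 99 regions were PROLIF-only, against 6.29% of regions in the genome, and 5 were DIFF-only, against 11.1%.

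**Figure D4:**
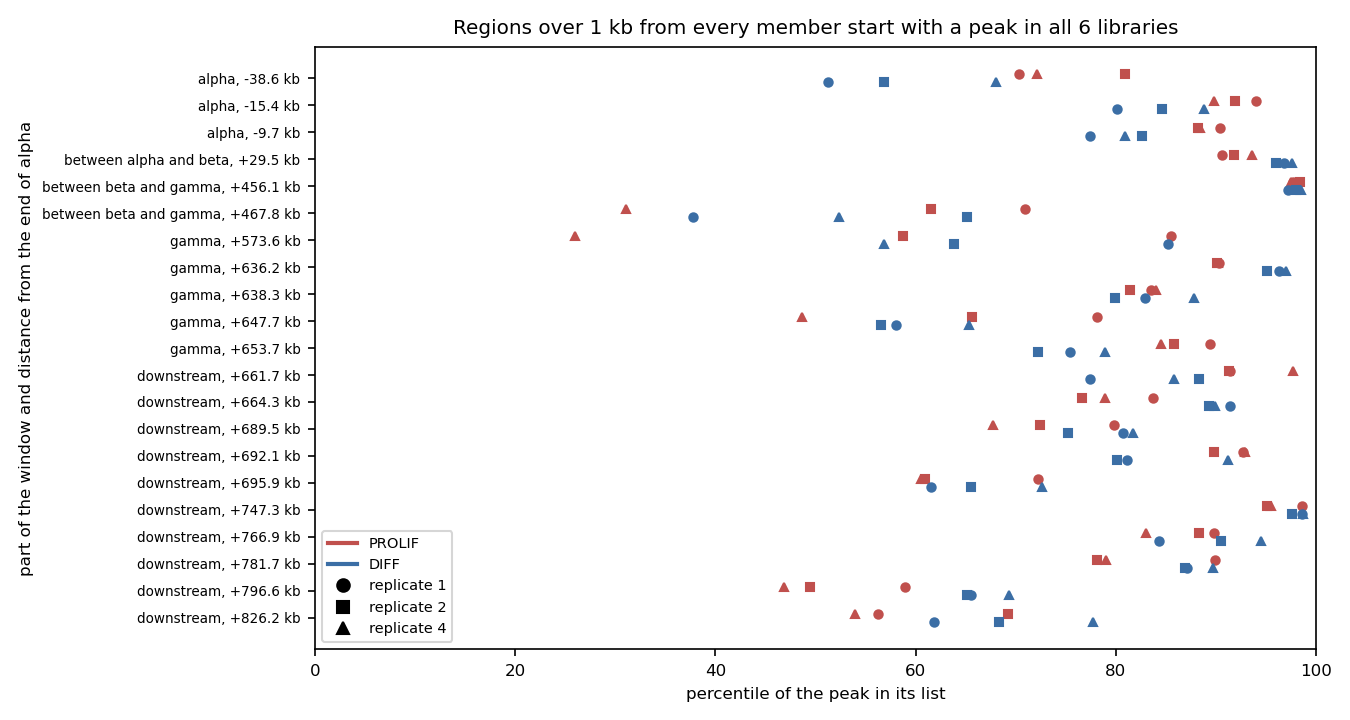
Percentile of the peak in each library for the 21 regions over 1 kb from every member start that had a peak in all 6 libraries, in genome order, named by part of the window and distance in kb from the end of the alpha cluster. The 3 alpha regions lie higher in PROLIF, and the region between alpha and beta lies at 96.0 to 97.6 in DIFF and at 90.6 to 93.6 in PROLIF.

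The highest median percentiles in the window, 98.1 and 97.9, belonged to promoters of genes outside the family. These were *Diaph1*, a formin gene downstream of gamma (95.1 to 98.7), and *Taf7*, a general transcription factor gene between beta and gamma (97.2 to 98.5). Introns of *Diaph1* held 5 regions found in every library. The one at 37849388-37850187, 7.51 kb past gamma, had 91.4, 91.3 and 97.7 in PROLIF and 77.4, 88.3 and 85.8 in DIFF. Its neighbour at 37851922-37852598 also lay in an intron of *Diaph1*, but 809 bp from an annotated *Diaph1* start. By the definition used here it is thus also a *Diaph1* promoter region. It had 83.7, 76.6 and 79.0 in PROLIF and 91.4, 89.3 and 89.9 in DIFF, the opposite order. Long stretches had no peak in any library. The longest were 73.9 kb between beta and gamma, 68.5 kb between *Pcdha12* and *Pcdhac1*, and 58.8 kb that held *Pcdhb20*, *Pcdhb21* and *Pcdhb22*.

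Related genes elsewhere in the genome were open more evenly than the clustered ones. Of 12 non-clustered protocadherin genes, which encode cadherin-like adhesion proteins without the shared organisation, 11 had a peak at the promoter in all 6 libraries, and the median of their percentiles was 88.8. The exception was *Pcdh12*, known from blood vessel endothelium, with a peak in 1 DIFF library at percentile 2.32. All 17 genes of factors that act on the clusters, among them *Ctcf*, *Rad21*, *Smchd1* and *Dnmt3b*, had a peak in every library. So did 61.1% of all protein-coding genes. Of 11 genes of intracellular partners of the proteins, 10 had a peak in every library, and *Ptk2b*, a kinase that binds the shared cytoplasmic domains, had none in any library.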

How the data were processed

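State and replicate number were taken from the labels. Before deposit, the authors removed adapters (Cutadapt) and low-quality bases (Trimmomatic), aligned read pairs to GRCm38 (Bowtie2) and called narrow peaks in each library separately (MACS2, false discovery rate 0.05). Versions and any transposase shift are not given in the sources used here. Where no peak is listed, signal stayed below the caller's threshold. Among the deposited columns, the score equals 10 times the −log10 q, cut to a whole number. Deposited fold enrichment is a ratio to local background in one library. The deposited −log10 p and −log10 q come from the same caller.

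Read depth per library was not used here, so no count intervals are given. Promoters came from GENCODE M21. States were compared by two-sided exact permutation over 6 libraries, with Benjamini-Hochberg adjustment over 8 results. Named genes were all C-type genes, the first and last gene of each cluster, state-only genes, the 5 per cluster whose lowest percentile was highest, and genes without a peak. Named regions were those over 1 kb from member starts in all libraries, up to 8 by lowest percentile, and state-only ones; other regions were named after their values were seen. Members, lists and rules were chosen with earlier results of these data known. Sequences of this chromosome are not printed here, and the full oligodendrocyte marker list is not reported here. The counting of promoter classes was tested on simulated data. Alternatives were q of 0.01 or 0.001, lists of equal length (60006 peaks), the strongest 20000 peaks, promoters of 500 bp or 3 kb, summits in place of overlap, 50% cover, the cluster alone, each library left out and the replicate block. Software was matplotlib 3.10.9, scipy 1.17.1, pandas 2.3.3, numpy 2.4.6 and Python 3.11.15.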

Additional observations from a re-analysis of the deposited data

How the results depend on the processing

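The larger share of the list in the window in PROLIF kept its direction under every alternative run, between -0.0209 and -0.0166 percentage points with one library left out, but shrank to -0.00167 among the strongest 20000 peaks. All differences are DIFF minus PROLIF. With the strongest 20000 peaks, the differences in members with a promoter peak turned to 0.333 for all, alpha and gamma genes, and covered length turned to 0.438 kb. Members in every library were then 3, state-only members 0 and 0, regions in every library 17, and state-only regions 0 and 0. With q of 0.001 or less, the beta difference turned to 0.333. That setting and lists of equal length each left 1 PROLIF-only and 0 DIFF-only members, and 1 PROLIF-only and 0 DIFF-only regions. Promoters of 500 bp left 1 PROLIF-only member, the cluster alone 1 PROLIF-only region, and 50% cover 22 regions in every library and 0 DIFF-only regions. The causes were not tested.

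With one library left out, covered length ranged from -4.02 to 0.569 kb, turning to 0.317 without PROLIF replicate 2 and to 0.569 without DIFF replicate 1. PROLIF-only members ranged from 2 to 3, DIFF-only members from 1 to 2, PROLIF-only regions from 2 to 5, DIFF-only regions from 1 to 3, members in every library from 13 to 15 and regions in every library from 33 to 37.

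The study describes both states as profiled on the same cultures without tying replicate numbers to them. Deviations of percentiles from their state's mean, over 39088 regions, had correlations of 0.0550, 0.153 and 0.0122 for libraries sharing number 1, 2 or 4, and of -0.113 to 0.0614 for other pairs, and only replicate 2 correlated best with its own number, so the numbers were not used as pairs. With the replicate block (a peak in the same direction in at least 2 pairs and in none the other way), 4 members were PROLIF-only (*Pcdhb13* and *Pcdhb16* added) and 2 DIFF-only (*Pcdhga8* added), with 8 PROLIF-only and 5 DIFF-only regions. All 8 tested differences are by construction the same size under the block, whose smallest exact permutation p is 0.25.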
